A study of Sus scrofa with 9 samples.

Results

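Translation initiation and elongation factors were followed in sow mammary gland between late pregnancy and lactation. The members are all probe sets annotated to 1 gene symbol that begins with EIF or EEF and a digit. There were 65 such probe sets for 42 genes, out of 10099 probe sets for 6765 genes with 1 symbol on an array of 24123 probe sets. A further 6 probe sets carry such a symbol together with another one, and were left out. The biopsied animals were 6 Large White sows, and each sow gave tissue on all 3 days: day -17 (late pregnancy, within 2 days either way), day 1 (just after farrowing) and day 17 (lactation), counted from farrowing. The RNA of 2 sows was pooled for each Affymetrix porcine array, which gave 3 pools a day and 9 arrays. No group was treated, all animals were of 1 breed, and day -17 serves as the baseline. Since each array carries a pool, the spread between pools is smaller than that between single sows would be, and the same animals stand behind every day.

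Protein synthesis begins when a small ribosomal subunit, helped by EIF1, EIF1A and the EIF3 complex, receives the initiator tRNA from EIF2. The EIF4F complex (EIF4E, EIF4G and the helicase EIF4A) brings in the capped mRNA, and EIF5 family factors join the large subunit. Elongation factors then deliver aminoacyl-tRNAs and move the ribosome along. A lactating mammary epithelial cell makes milk protein in bulk, and in rodents and ruminants mTORC1 signalling to these factors has been studied as a control of that output. The genes of these factors are transcribed in all cells, so biopsies of whole gland mix secretory epithelium, stroma, fat and blood cells. In such bulk tissue fewer cells of a type and less RNA per cell cannot be told apart.

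Levels are MAS5 signal intensities on a linear scale, which compare 1 probe set between arrays and not 1 gene with another. Differences are log2 ± standard error from a limma fit to all 9 arrays (n = 3 pools a day throughout). A gene counts as called at an adjusted p under 0.05 after the Benjamini-Hochberg adjustment over all 15519 tested probe sets. A gene with several tested probe sets is represented by the one with the highest mean log2 signal.

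The tissue matched its label by its milk proteins. All 7 milk protein markers were measured, and their summed signal was 60484 to 85935 on day -17, 216822 to 304308 on day 1 and 458643 to 468487 on day 17. The general epithelial markers moved both ways. Of 5 tested on day 17 against day -17, EPCAM was called higher (1.65 ± 0.19), KRT8 (-1.48 ± 0.48) and KRT19 (-1.19 ± 0.43) were called lower, and the median was -1.15. Markers of other cell types moved too. The summed signal of 8 cell cycle genes was 3162 to 6085, 3182 to 6215 and 1703 to 2199 on the 3 days, that of 4 fibroblast genes 27672 to 35344, 14016 to 32211 and 12742 to 14437, and that of 8 adipocyte genes 7669 to 19753, 15426 to 22248 and 20549 to 23638. Of the markers tested on day 17 against day -17, 7 of 8 cell cycle genes, 3 of 4 fibroblast genes and 4 of 8 adipocyte genes were called lower, and 2 adipocyte genes higher. Of all genes 23.8% were called each way. FABP4, 1 of the 2 called higher, made up most of the adipocyte sum (6393 to 18170 over all arrays). The 4 called lower, ADIPOQ, LIPE, GPD1 and RBP4, read 6.33 to 56.6 on day 17, under the filter level of 90.7 to 94.2. They were tested through arrays of the earlier days, so no size is read from them. The array's checks moved with day as well. They did not all move 1 way: the actin 3'/5' signal ratio was 7.01 to 7.26, 8.39 to 9.57 and 14.5 to 15.9 on the 3 days, and that of GAPDH 2.38 to 3.06, 2.25 to 2.32 and 1.77 to 1.98. Of the 18S rRNA probe sets 1 read 3163 to 3635, 13550 to 16400 and 31490 to 34060 and the other 1357 to 1739, 288 to 544 and 400 to 808. The 28S rRNA probe set read 3435 to 4220, 22640 to 27210 and 45140 to 48740, and the E. coli hybridization controls were 0.32 log2 brighter on day 1 than on day -17 and 1.28 brighter on day 17. The part of cell composition, RNA quality and scaling in the differences below was not tested. All directions are relative to the trimmed mean signal, which the deposited scaling had set to be equal on all arrays.

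Of the 42 genes, 41 passed the filter on dim signals, with 62 probe sets. EIF1AY, a Y-linked form of EIF1A, was the one that did not: its signals were 2.18 to 13.6 on day -17, 1.04 to 4.04 on day 1 and 11.6 to 24.7 on day 17, in animals that are all female. As a set, the 41 genes divided in both directions. On day 1 against day -17, 7 were called higher and 5 lower, or 17.1% and 12.2%, where 15.3% and 10.4% of all 5670 tested genes were. On day 17 against day 1, 1 was called higher and 3 lower (2.44% and 7.32%, beside 8.02% and 8.57% of all genes). On day 17 against day -17, 9 were called higher and 11 lower (22.0% and 26.8%, beside 23.8% and 23.8%). Across the 3 days the F test called 22 of the 41 (53.7%, beside 47.8%). These shares lie near those of all genes, and the medians were near 0 as well: 0.08, -0.06 and -0.01 for the members in these comparisons, in the order given, against -0.0008, -0.04 and -0.03 for all genes. Under scaling to the E. coli controls the split between directions did not hold: by limma 0 members were called higher and 15 lower on day 1 against day -17 (2 and 19 at an unadjusted p under 0.05), and 0 higher and 40 lower on day 17 against either other day (0 and 40 unadjusted). Of all genes 27.6% were then called lower on day 1 against day -17, 80.2% on day 17 against day 1 and 82.5% on day 17 against day -17.

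The members' differences kept to a narrow range. On day 17 against day -17 they spanned -1.08 to 1.38, while all tested genes spanned -6.61 to 8.86. A range widens with the number of genes, here 41 and 5670, so these 2 ranges cannot be compared directly. The median absolute log2 difference was 0.35 for the members and 0.53 for all genes in that comparison, 0.21 and 0.32 on day 17 against day 1, and 0.33 and 0.37 on day 1 against day -17. Only 2 members, EIF1 and EIF3D, were called with a difference of 2-fold or more on day 17 against day -17, whereas 22.3% of all genes were. The members are also brighter, with a median mean signal of 2677 against 655.9, and had smaller standard errors (median 0.14 against 0.19). The difference in range was not tested. Their summed signal made up 1.13% to 1.17% of all signal on day -17, 1.04% to 1.17% on day 1 and 1.09% to 1.13% on day 17. By this share day 1 overlapped with both other days, while every day 17 pool lay below every day -17 pool by a small margin (at most 1.128% against at least 1.133%). The summed signal itself went the other way, at 197057 to 204541 on day -17, 187132 to 220704 on day 1 and 220356 to 227602 on day 17. The sum of all non-control signals was also larger on day 17 (20140000 to 20200000) than on day -17 (17140000 to 17790000). Of the 41, 15 had no call in any comparison and 26 had at least 1.

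**Figure D1:**
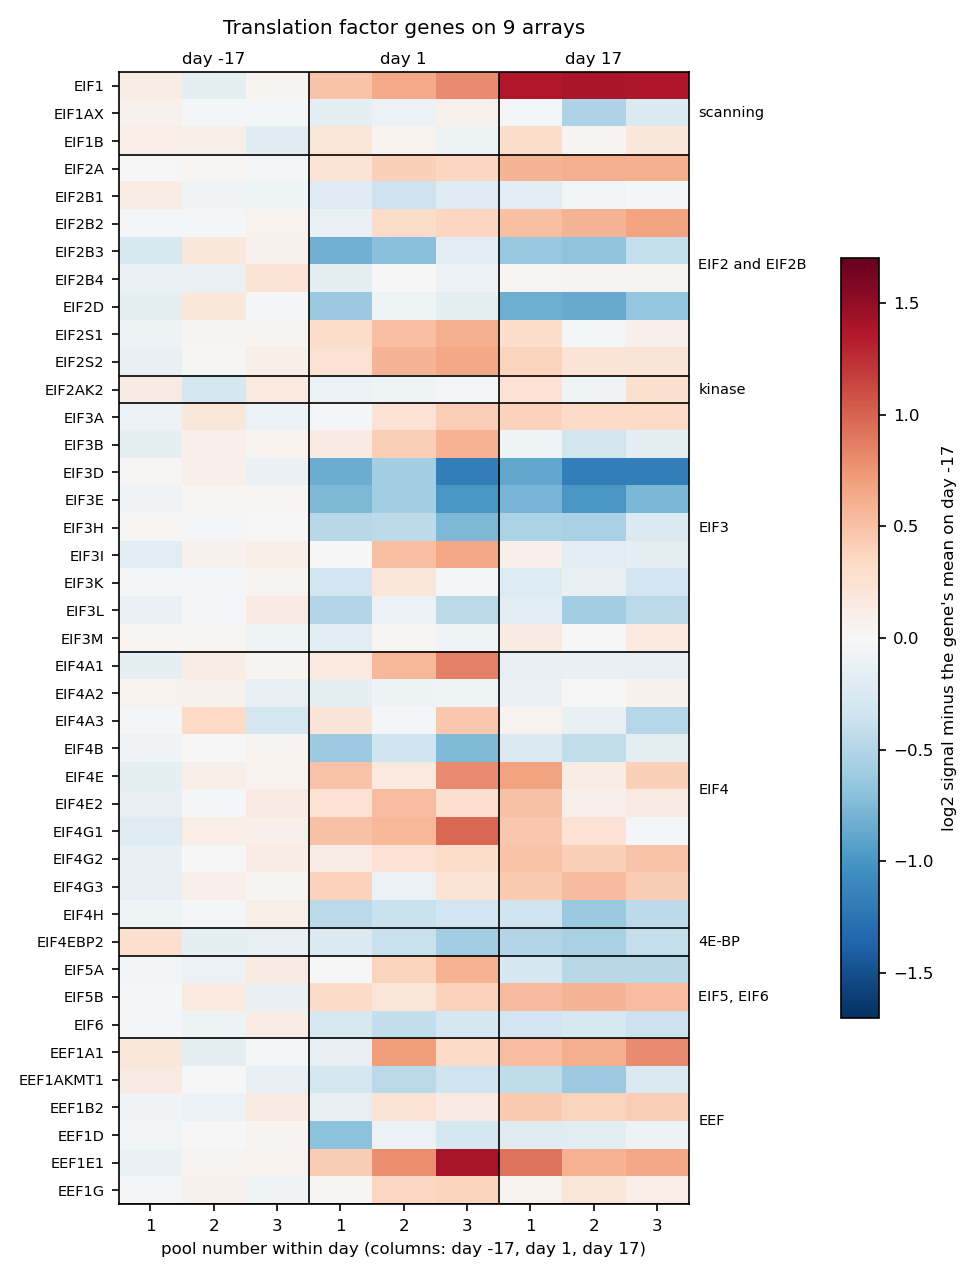
Log2 signal of 41 translation factor genes (down the page, grouped by role) on the 9 arrays (3 pools on each of days -17, 1 and 17), minus the mean of the gene over the day -17 arrays. Colours run from 1.7 below (blue) to 1.7 above (red): EIF1 is the darkest red on day 17, and EIF3D and EIF3E are blue on days 1 and 17. EIF4A1 and EIF5A are light red in day 1 pools 2 and 3, pale in day 1 pool 1, and pale or blue on day 17.

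EIF1, which with EIF1A holds the scanning ribosome open until it meets a start codon, was the member with the largest rise on day 17 against day -17 and the only one called in every comparison. Its signals were 14746, 12045 and 14054 on day -17, 18988, 21165 and 23632 on day 1, and 34900, 35518 and 35216 on day 17. No 2 days overlapped. The difference was 0.64 ± 0.11 on day 1 against day -17 (1.56-fold, adjusted p = 0.00347), 0.73 ± 0.11 on day 17 against day 1 (1.66-fold, adjusted p = 0.00458) and 1.38 ± 0.11 on day 17 against day -17 (2.60-fold, adjusted p = 1.83e-05). These 3 calls held without any 1 array. With E. coli scaling none of them did: the values became 0.32 (adjusted p = 0.0520), -0.22 (adjusted p = 0.0991) and 0.10 (adjusted p = 0.442), the second with its sign turned. A second EIF1 probe set read 3967, 3280 and 3818 on day -17, 3933, 3561 and 3872 on day 1, and 5412, 5299 and 5818 on day 17. It stood apart on day 17 only, with 0.04 ± 0.11 for day 1 against day -17 (not called) and 0.58 ± 0.11 for day 17 against day -17 (adjusted p = 0.00227).

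The 2 other scanning factors that were tested did not follow EIF1. EIF1B, a close relative of EIF1, differed by 0.17 ± 0.14 on day 17 against day -17 and was called in no comparison. EIF1AX, the X-linked EIF1A, differed by -0.27 ± 0.14 in that comparison (adjusted p = 0.140) by the probe set that represents it. Its other probe set was lower in both comparisons with day -17, at 1863, 1365 and 1657 on day 1 and 1823, 1523 and 1504 on day 17, against 2915, 2226 and 2318 on day -17. That gave -0.61 ± 0.16 on day 1 (adjusted p = 0.0215) and -0.62 ± 0.16 on day 17 (adjusted p = 0.0104), each against day -17.

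EIF2 carries the initiator tRNA to the ribosome, and EIF2B recharges it with GTP. The 2 EIF2 subunits with an unshared probe set were both higher on day 1. EIF2S1, the alpha subunit that stress kinases phosphorylate, read 1967, 2148 and 2150 on day -17, 2595, 2972 and 3194 on day 1, and 2572, 2040 and 2217 on day 17. Every day 1 pool lay above every pool of day -17 and of day 17. Day 1 was 1.39-fold above day -17 (0.48 ± 0.13, adjusted p = 0.0250), and day 17 differed from day 1 by -0.36 ± 0.13 (adjusted p = 0.0915) and from day -17 by 0.12 ± 0.13 (adjusted p = 0.477). EIF2S2, the beta subunit, had 3531 to 4670 on day 1 against 2711 to 3177 on day -17 (0.50 ± 0.13, adjusted p = 0.0226). Either call ended without day -17 pool 1 or 2 or day 1 pool 2 or 3, and that of EIF2S1 also without day -17 pool 3. The adjusted p then reached up to 0.0860 for EIF2S1 and 0.0800 for EIF2S2, and the EIF2S2 call also ended in a fit of the 6 compared arrays alone (0.0564). Under E. coli scaling both lost the call too, at 0.16 for EIF2S1 and 0.18 for EIF2S2.

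EIF2B subunits moved in unlike directions. EIF2B2, the beta subunit, read 2211, 2179 and 2327 on day -17, 2077, 2770 and 2871 on day 1, and 3194, 3326 and 3585 on day 17. All day 17 pools lay above all others, and day 17 was 1.50-fold above day -17 (0.59 ± 0.14, adjusted p = 0.00625). EIF2B3, the gamma subunit of the catalytic part, had 382, 372 and 452 on day 17, against 500, 679 and 632 on day -17 (-0.58 ± 0.20, adjusted p = 0.0360). The EIF2B3 call ended without day -17 pool 2 or 3 or day 17 pool 1 or 2 (adjusted p up to 0.114), under quantile normalization (0.111) and under median centring (0.0739). EIF2B1 and EIF2B4 were called nowhere, with -0.09 ± 0.13 and 0.04 ± 0.13 on day 17 against day -17. E. coli scaling turned the EIF2B2 difference to -0.69 (adjusted p = 0.000970).

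EIF2A and EIF2D bear the EIF2 name but are single proteins outside the EIF2 complex, which can bring initiator tRNA to the ribosome by other routes. They moved in opposite directions. EIF2A read 3075, 3152 and 3004 on day -17, 3616, 4084 and 3947 on day 1, and 4599, 4702 and 4671 on day 17. Its 3 days did not overlap, and it was 1.51-fold higher on day 17 than on day -17 (0.60 ± 0.10, adjusted p = 0.00101). The smaller difference of day 1 against day -17, 0.33 ± 0.10 (adjusted p = 0.0355), lost its call in 8 of the 9 fits with 1 array left out, all but the one without day 1 pool 1 (adjusted p up to 0.104), and under E. coli scaling and 5 of the 11 other alternatives (adjusted p 0.0540 to 0.940). A dimmer EIF2A probe set, at 185 to 343 on all 9 arrays, showed no difference (-0.02 ± 0.30 on day 17 against day -17), and the mean over both sets was not called in either comparison (adjusted p = 0.189 on day 17 and 0.736 on day 1, each against day -17). EIF2D read 518, 656 and 574 on day -17, 375, 550 and 515 on day 1, and 325, 320 and 368 on day 17. Every day 17 pool lay below every earlier pool, and EIF2D fell 1.72-fold on day 17 against day -17 (-0.78 ± 0.18, adjusted p = 0.00567). The EIF2D call held under every alternative other than the minimum of 2-fold, which it does not reach. E. coli scaling lowers all genes of later days and so is no test of this lower call. That scaling turned EIF2A to -0.68 on day 17 against day -17 (adjusted p = 0.000429).

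EIF2AK2, the double-stranded RNA kinase of EIF2 alpha and the one EIF2 kinase among the members, read 722, 536 and 734 on day -17, 615, 625 and 642 on day 1, and 778, 630 and 796 on day 17. The 3 days overlapped and no comparison was called (0.15 ± 0.16 on day 17 against day -17, adjusted p = 0.467).

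EIF3 is the large multi-subunit scaffold of the initiation complex. Of its 9 tested subunits 0 were called higher in any comparison by limma (2, 0 and 1 at an unadjusted p under 0.05 in the comparisons day 1 with day -17, day 17 with day 1 and day 17 with day -17). On day 1 against day -17, 3 were called lower (33.3%, beside 10.4% of all genes), and on day 17 against day -17, 4 were (44.4%, beside 23.8%). On day 17 against day 1, 1 was called lower (11.1%, beside 8.57%). These are few calls among 9 genes, and whether the group differs from all genes was not tested. E. coli scaling lowers all genes of later days, so it is no test of these lower calls.

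EIF3E, a subunit first found as the integration site of mouse mammary tumour virus, Int6, read 13165, 14049 and 13980 on day -17, 8095, 9101 and 6917 on day 1, and 7947, 6890 and 8003 on day 17. Every pool of days 1 and 17 lay below every pool of day -17, while days 1 and 17 overlapped. The fall was 1.72-fold on day 1 (-0.78 ± 0.12, adjusted p = 0.00192) and 1.81-fold on day 17 (-0.85 ± 0.12, adjusted p = 0.000414), each against day -17. Both calls held under every alternative tried other than the minimum of 2-fold, which neither difference reaches.

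EIF3D, which can itself bind the cap of certain mRNAs, read 2273, 2374 and 2065 on day -17, 1243, 1503 and 985 on day 1, and 1214, 992 and 986 on day 17. Days 1 and 17 overlapped, and both lay wholly below day -17. It fell 1.82-fold on day 1 (-0.87 ± 0.17, adjusted p = 0.00549) and 2.11-fold on day 17 (-1.08 ± 0.17, adjusted p = 0.000684), each against day -17. A dim second probe set, with 124 to 185 on day 17 against 51.6 to 133 on day -17, had the opposite sign (0.88 ± 0.34, adjusted p = 0.0587), so that the mean over both sets was not called (adjusted p = 0.726 for day 17 and 0.946 for day 1, each against day -17).

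EIF3H, a peripheral subunit, read 9909, 9557 and 9830 on day -17, 7048, 7203 and 5736 on day 1, and 6719, 6692 and 8270 on day 17. Its later pools all lay below day -17. Day 1 was lower by 1.47-fold (-0.56 ± 0.13, adjusted p = 0.0112), and day 17 by 1.36-fold (-0.44 ± 0.13, adjusted p = 0.0164), each against day -17. The day 17 call ended without day 17 pool 1 or 2 (adjusted p up to 0.0632). EIF3L had 2962 to 3919 on day 17 against 4101 to 4895 on day -17, and its call (-0.41 ± 0.15, adjusted p = 0.0454) ended in 6 of 9 fits with 1 array left out, those without any 1 of the day -17 pools, day 1 pool 3, or day 17 pool 2 or 3 (adjusted p up to 0.154). Blocking on pool number ended it too (fixed block, adjusted p = 0.0570), without the filter (0.0579), without the intensity trend (0.0792) and under median centring (0.122).

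EIF3B, which with EIF3A and EIF3I belongs to the core of the complex known from yeast, took another course. Its signals were 777, 911 and 899 on day -17, 946, 1145 and 1298 on day 1, and 819, 694 and 771 on day 17. Day 1 was the highest and overlapped with neither other day. The difference of day 17 against day 1 was called, a 1.48-fold fall (-0.56 ± 0.15, adjusted p = 0.0373), and that of day 1 against day -17 was not (0.38 ± 0.15, adjusted p = 0.0944). The fall was not called without day -17 pool 3, day 1 pool 2 or 3, or any 1 of the day 17 pools (adjusted p up to 0.117), nor under quantile normalization (0.0570), without the intensity trend (0.0564) or with the 6 compared arrays alone (0.0602). EIF3I had 2767, 3892 and 4326 on day 1 against 2432, 2892 and 2935 on day -17, and was not called (0.39 ± 0.17, adjusted p = 0.123).

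Grouped by the modules of the complex, a grouping made after the values were seen and therefore given without a test, EIF3A, EIF3B and EIF3I had differences of 0.21 to 0.39 on day 1 against day -17, all above 0 and none called. EIF3E, EIF3H, EIF3K, EIF3L and EIF3M had -0.78 to -0.05, all below 0, with 2 called. EIF3K and EIF3M were called in no comparison, although a second, dimmer EIF3M probe set was lower on day 1 (-0.69 ± 0.16, adjusted p = 0.0142) and on day 17 (-0.52 ± 0.16, adjusted p = 0.0251) than on day -17. E. coli scaling subtracts 0.32 from each of these day 1 differences, which leaves EIF3A below 0 and EIF3B and EIF3I just above it. In the pig assembly Sscrofa11.1 EIF3H and EIF3E lie on 1 chromosome with 13 protein-coding genes between them.

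**Figure D2:**
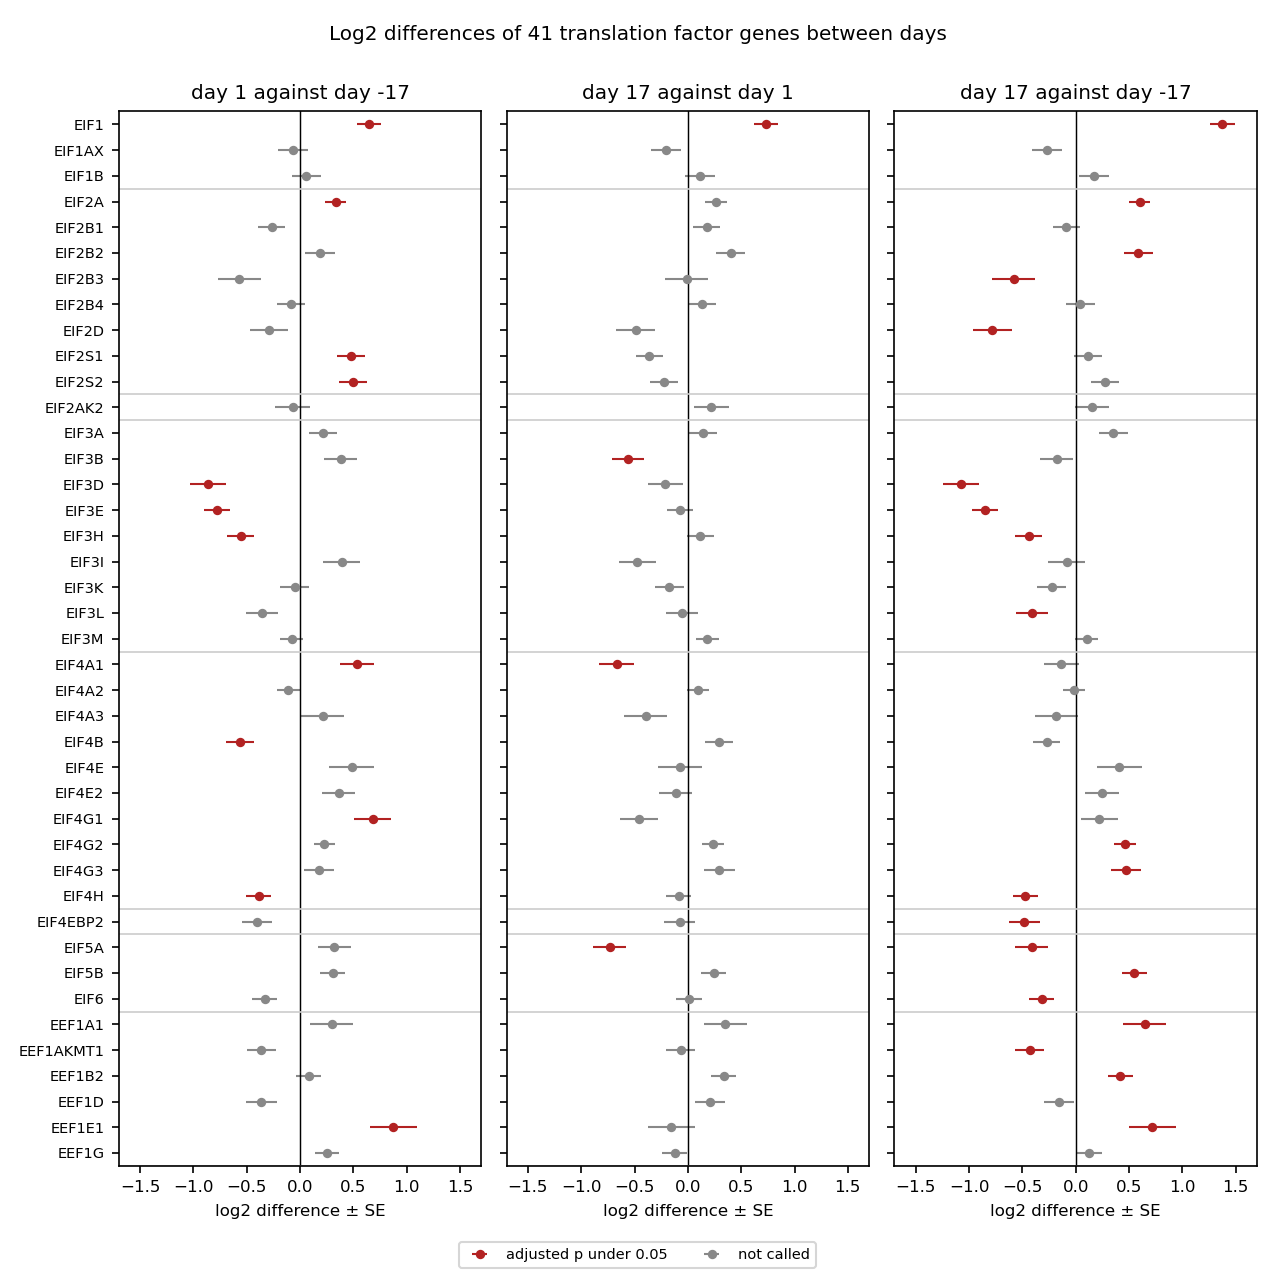
Log2 differences ± SE (limma, 3 pools a day) of 41 translation factor genes for day 1 against -17, day 17 against 1 and day 17 against -17, with genes in the same order and role groups in each panel. Red points were called at an adjusted p under 0.05 and grey ones were not: the panels hold 12, 4 and 20 red points, and in the last one the EIF2, EIF4, EIF5 and EEF groups have them on both sides of 0, relative to the array mean (with E. coli scaling 0 are called above 0).

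The EIF4 factors recognise the cap and unwind the leader of the mRNA. Of 10 tested, 2 were called higher and 2 lower on day 1 against day -17, 1 was called lower on day 17 against day 1, and 2 were called higher and 1 lower on day 17 against day -17. Of all genes 15.3% and 10.4% were called higher and lower in the first of these comparisons, 8.02% and 8.57% in the second and 23.8% each way in the third, so a few calls among 10 genes do not set the group apart. The helicase EIF4A1 and its scaffold EIF4G1 were the 2 that were higher on day 1.

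EIF4A1 read 4993, 6063 and 5738 on day -17, 6266, 8275 and 10145 on day 1, and 5074, 5097 and 5085 on day 17. All day 1 pools exceeded all others, with a wide spread among them. It was the only member called higher on day 1 than on day -17 (1.45-fold, 0.53 ± 0.16, adjusted p = 0.0382) and then lower on day 17 than on day 1 (1.59-fold, -0.67 ± 0.16, adjusted p = 0.0247). Among all tested genes 1.27% had these 2 calls. The first call was lost in 8 of 9 fits with 1 array left out, all but the one without day 1 pool 1 (adjusted p up to 0.124), and under quantile normalization (0.107), no filter (0.0548), no intensity trend (0.0726), the 6 compared arrays alone (0.0879) and E. coli scaling (0.328). The second was lost without day 1 pool 2 or 3 or any 1 of the day 17 pools (adjusted p up to 0.0734) and without the intensity trend (0.0531). EIF4A2, the other cytoplasmic form of the helicase, had 10995 to 13064 on all 9 arrays and was called nowhere. EIF4A3, a related helicase of the exon junction complex and not of the cap, was also called nowhere (1456 to 2797).

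EIF4G1 read 1296, 1621 and 1594 on day -17, 2110, 2210 and 2953 on day 1, and 2046, 1766 and 1469 on day 17. Every day 1 pool lay above every other pool. The rise on day 1 was 1.60-fold (0.68 ± 0.18, adjusted p = 0.0202), a call that ended without day -17 pool 1 or day 1 pool 3 (adjusted p up to 0.0736), with the mean over its 2 probe sets (0.0623) and under E. coli scaling (0.156). Day 17 differed from day 1 by -0.46 ± 0.18 (adjusted p = 0.107). The other members of the scaffold family did not share this course. EIF4G2, which lacks the part that binds EIF4E, read 12552, 13697 and 14852 on day -17, 14944, 16249 and 16895 on day 1, and 19190, 18138 and 19148 on day 17. Its days did not overlap, and day 17 was 1.38-fold above day -17 (0.46 ± 0.10, adjusted p = 0.00426). EIF4G3 had 2814 to 3020 on day 17 against 1885 to 2208 on day -17 (0.47 ± 0.14, adjusted p = 0.0201), a call that ended without day -17 pool 1 or day 17 pool 2 (adjusted p up to 0.0662). Quantile normalization ended the call of EIF4G2 (adjusted p = 0.636), and E. coli scaling turned both to lower, at -0.82 for EIF4G2 and -0.80 for EIF4G3.

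EIF4B and EIF4H, related proteins that stimulate the EIF4A helicase, were lower on day 1 than on day -17. EIF4B read 5762, 6077 and 6237 on day -17, 3943, 4769 and 3578 on day 1, and 5070, 4510 and 5404 on day 17. Both later days lay below day -17. Day 1 was 1.48-fold lower than day -17 (-0.57 ± 0.13, adjusted p = 0.0118), while day 17 was not called (-0.27 ± 0.13, adjusted p = 0.106). Its second probe set read 2854, 3334 and 3053 on day -17, 2214, 3380 and 2248 on day 1, and 4778, 4510 and 4871 on day 17. There day 17 stood above both other days (0.88 ± 0.16 against day 1, adjusted p = 0.00854, and 0.62 ± 0.16 against day -17, adjusted p = 0.0110), so the 2 probe sets differ in sign on day 17 against day -17. By the mean over both, the day 1 call was not made (adjusted p = 0.0581).

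EIF4H read 3459, 3574 and 3912 on day -17, 2660, 2803 and 2903 on day 1, and 2875, 2360 and 2671 on day 17. Days 1 and 17 overlapped below day -17. Day 17 was 1.39-fold lower than day -17 (-0.47 ± 0.12, adjusted p = 0.00783), a call that held without any 1 array, and day 1 was 1.31-fold lower than day -17 (-0.39 ± 0.12, adjusted p = 0.0360), one that ended in 7 of the 9 such fits, all but those without day 17 pool 1 or 2 (adjusted p up to 0.119), and under median centring (0.173), no filter (0.0501), no intensity trend (0.0710) and the 6 compared arrays alone (0.0625). A dim EIF4H probe set, at 179 to 553, was not called, and with the mean over both sets neither call was made (adjusted p = 0.422 on day 1 and 0.451 on day 17, each against day -17).

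EIF4E, the cap-binding protein on which mTORC1 signalling acts, read 251, 299 and 292 on day -17, 392, 314 and 486 on day 1, and 451, 306 and 372 on day 17. Although each later pool lay above all day -17 pools, the differences of 0.48 ± 0.21 on day 1 (adjusted p = 0.116) and 0.41 ± 0.21 on day 17 (adjusted p = 0.129) against day -17 were not called. EIF4E2, a relative that binds the cap and represses translation, was not called either (0.36 ± 0.16 on day 1 against day -17, adjusted p = 0.119).

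EIF4EBP2, one of the proteins that hold EIF4E back until mTORC1 phosphorylates them, was measured by 5 probe sets that disagreed. The brightest read 6019, 4474 and 4518 on day -17, 4162, 3815 and 3304 on day 1, and 3520, 3393 and 3740 on day 17. Day 17 lay below day -17 by 1.40-fold (-0.48 ± 0.14, adjusted p = 0.0195), and the call ended without day -17 pool 1 or day 17 pool 1 or 2 (adjusted p up to 0.0680) and under median centring (0.0517). The next probe set was called lower as well (-0.64 ± 0.15 on day 17 against day -17, adjusted p = 0.00535). A further 2 were called higher in that comparison, at 0.59 ± 0.21 and 0.49 ± 0.16. With 2 sets called each way, no single direction can be given for this gene. The dimmest set had 119 to 182 on day 17 against 26.8 to 50.3 on day -17. It was under the filter level on every day -17 array and was tested only because the later days passed, so no size or call is read from it. EIF4EBP1 was not analysed here.

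**Figure D3:**
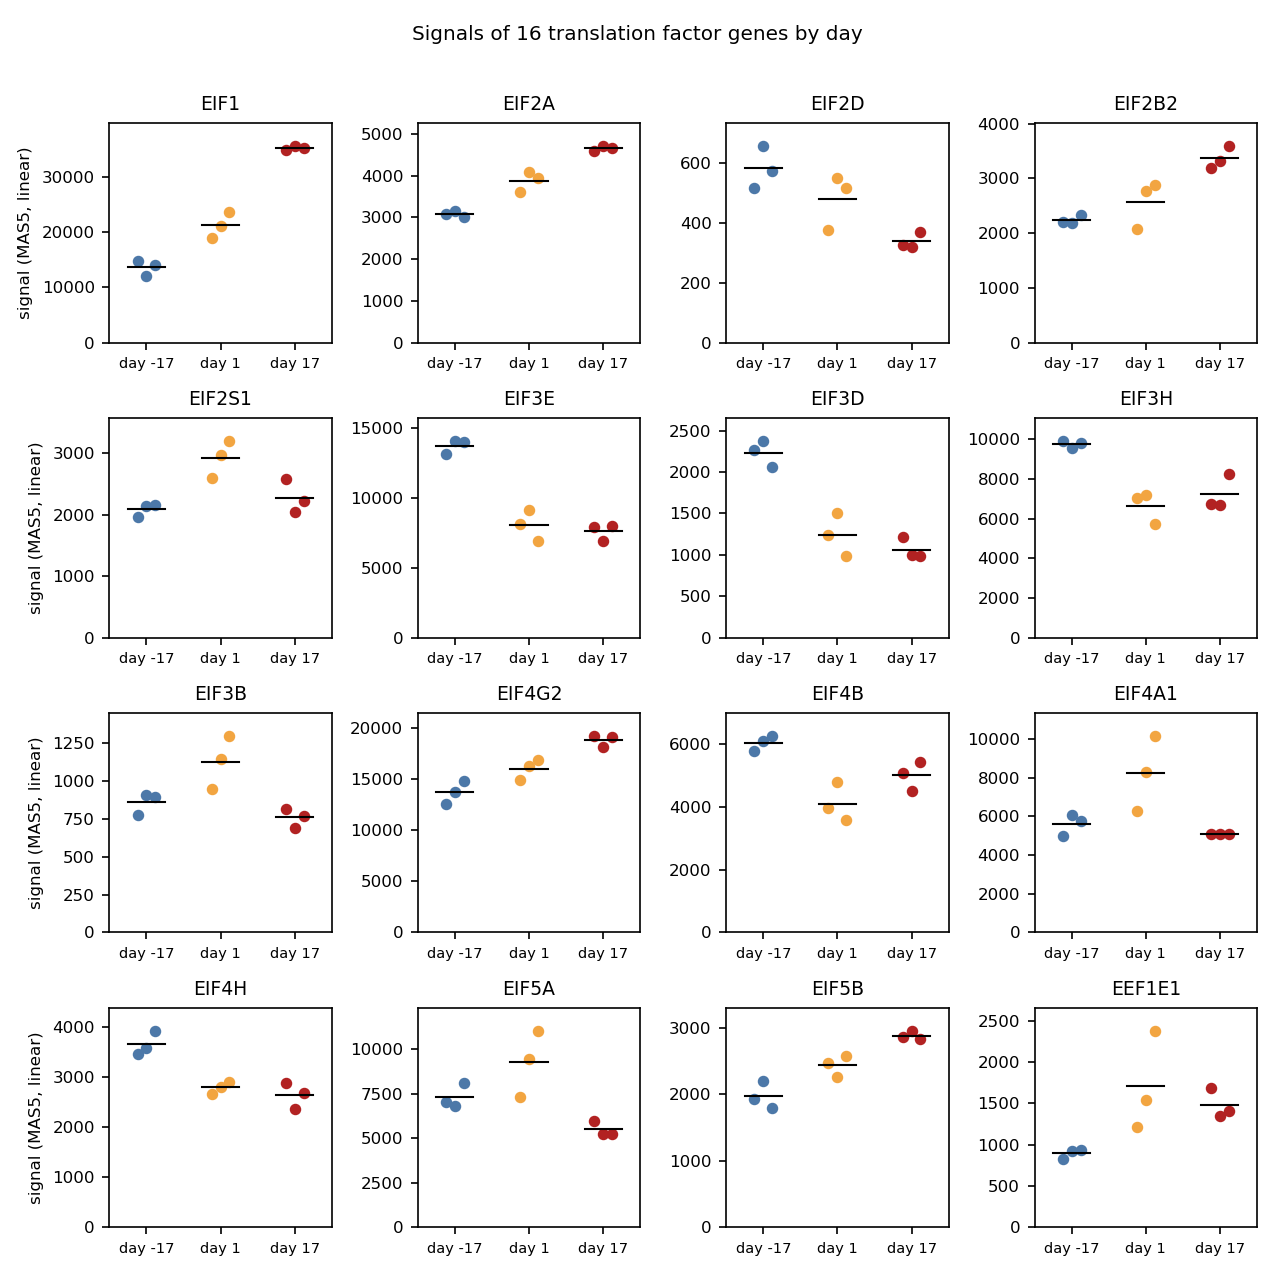
MAS5 signal on a linear scale (vertical axes from 0, scaled for each gene) of 16 translation factor genes on days -17, 1 and 17. Points are the 3 pools of a day and bars their mean: EIF1, EIF2A, EIF2B2, EIF4G2 and EIF5B are highest on day 17, EIF2D, EIF3E, EIF3D, EIF3H and EIF4H are highest on day -17, and EIF2S1, EIF3B, EIF4A1 and EIF5A are highest on day 1, all relative to the array mean and to their main probe set.

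EIF5A, the factor that carries the amino acid hypusine and relieves stalled ribosomes, was lower on day 17 than on either earlier day. Its signals were 7052, 6782 and 8090 on day -17, 7279, 9450 and 10995 on day 1, and 5967, 5233 and 5256 on day 17. Day 17 lay wholly below both other days, while days 1 and -17 overlapped. The fall was 1.66-fold against day 1 (-0.73 ± 0.15, adjusted p = 0.0136) and 1.33-fold against day -17 (-0.41 ± 0.15, adjusted p = 0.0475). The first ended only without day 17 pool 3 (adjusted p = 0.0518), and the second in 7 of 9 fits with 1 array left out, all but those without day 1 pool 1 or 3 (adjusted p up to 0.150), and under median centring (0.158), no filter (0.0659), no intensity trend (0.0866) and the mean over both probe sets (0.434). The second probe set read 3113, 2868 and 3240 on day -17, 4094, 4986 and 6044 on day 1, and 3776, 2998 and 3202 on day 17. It peaked on day 1, with 0.70 ± 0.15 for day 1 against day -17 (adjusted p = 0.0102) and -0.59 ± 0.15 for day 17 against day 1 (adjusted p = 0.0326), and was not called on day 17 against day -17 (0.11 ± 0.15, adjusted p = 0.588).

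The 3 members called lower on day 17 than on day 1 were EIF3B, EIF4A1 and EIF5A. The cell cycle markers TOP2A (-1.615 ± 0.43, adjusted p = 0.0349) and MCM2 (-1.08 ± 0.24, adjusted p = 0.0173) were called lower in that comparison too. PCNA was not (-0.68 ± 0.23, adjusted p = 0.0789). CCNB2, MCM3, MCM5 and TYMS were under the filter level on every day 17 array, and CCNB1 in day 17 pools 1 and 2. They passed the filter mainly through the earlier days, so no size or call is read from them. In the same comparison 8.57% of all genes were called lower. Whether the cell cycle markers have a part in these falls was not tested. EIF5A and EIF4A1 lie on 1 chromosome of Sscrofa11.1, with 18 protein-coding genes between them. EIF2S2 and EIF6 lie closer, with 14 between them, and had opposite signs on day 1 against day -17 (0.50, called, and -0.33, not called). Whether neighbouring members change together was not tested.

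EIF5B, the GTPase that joins the large ribosomal subunit, read 1927, 2200 and 1799 on day -17, 2477, 2267 and 2573 on day 1, and 2856, 2949 and 2835 on day 17. No 2 days overlapped, and day 17 was 1.46-fold above day -17 (0.55 ± 0.12, adjusted p = 0.00381). Of the 2 dimmer EIF5B probe sets, 1 had a difference of 0.30 ± 0.26 that was not called. The dimmest was under the filter level on every day -17 array and was tested only because later arrays passed, so no size or call is read from it. The mean over the 3 sets, which holds that set, was not called (adjusted p = 0.0506). E. coli scaling turned the main EIF5B value to -0.73 (adjusted p = 0.000555). EIF6, which keeps free large subunits from joining too soon and takes part in their assembly, read 1511, 1453 and 1684 on day -17, 1284, 1153 and 1257 on day 1, and 1237, 1277 and 1203 on day 17. Both later days lay below day -17. The call on day 17 against day -17 (1.25-fold lower, -0.32 ± 0.12, adjusted p = 0.0466) ended in 8 of 9 fits with 1 array left out, all but the one without day 1 pool 1 (adjusted p up to 0.156), under a fixed block on pool number (0.0533), and under quantile normalization (0.0634), median centring (0.160), no filter (0.0560), no intensity trend (0.0684) and the 6 compared arrays alone (0.0525).

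Of 6 tested genes named EEF, 1 was called higher on day 1 than on day -17, 0 were called on day 17 against day 1 by limma (1 higher at an unadjusted p under 0.05), and 3 were called higher and 1 lower on day 17 than on day -17, where 23.8% of all genes were called each way. The one with the largest difference is no elongation factor: EEF1E1 is a scaffold of the multi-synthetase complex that holds aminoacyl-tRNA synthetases. It read 832, 927 and 935 on day -17, 1212, 1544 and 2376 on day 1, and 1692, 1347 and 1408 on day 17. All later pools exceeded all day -17 pools. Day 1 was 1.83-fold above day -17 (0.87 ± 0.22, adjusted p = 0.0174), and day 17 was 1.65-fold above it (0.72 ± 0.22, adjusted p = 0.0212), which was not called without day -17 pool 1 or day 17 pool 1 (adjusted p up to 0.0772). The second EEF1E1 probe set gave the same directions with larger values, 1.47 ± 0.19 (adjusted p = 0.000611) and 1.16 ± 0.19 (adjusted p = 0.000799). Under E. coli scaling the 2 values of the main probe set were 0.56 (adjusted p = 0.0595) and -0.56 (adjusted p = 0.0270).

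The EEF1 complex proper consists of EEF1A, which brings aminoacyl-tRNA to the ribosome, and the exchange factor subunits EEF1B2, EEF1D and EEF1G that recharge it. EEF1B2 read 23142, 22655 and 27018 on day -17, 22032, 28384 and 26693 on day 1, and 33002, 31479 and 32422 on day 17. Only day 17 stood apart, 1.33-fold above day -17 (0.42 ± 0.12, adjusted p = 0.0151). That call ended without day -17 pool 1 or 2 or day 17 pool 1 (adjusted p up to 0.0568) and its direction turned under quantile normalization (-0.24, adjusted p = 0.0136) and E. coli scaling (-0.86). EEF1D and EEF1G were called nowhere, at -0.16 ± 0.14 for EEF1D and 0.13 ± 0.12 for EEF1G on day 17 against day -17. EEF1AKMT1, a methyltransferase that modifies EEF1A, had 1328, 1176 and 1518 on day 17 against 1992, 1790 and 1633 on day -17 (1.35-fold lower, -0.43 ± 0.14, adjusted p = 0.0256). This call ended without pool 1 or 2 of either day (adjusted p up to 0.0977) and under median centring (0.0723). EEF2, the factor that moves the ribosome along, is not among the members, so that step was not measured here.

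EEF1A1 shows how far a result can hang on the probe set. The set that represents it read 1352, 1060 and 1164 on day -17, 1075, 1935 and 1491 on day 1, and 1704, 1821 and 2068 on day 17. Day 17 was 1.57-fold above day -17 (0.65 ± 0.20, adjusted p = 0.0240), a call that ended without day -17 pool 2 or 3 or day 17 pool 2 or 3 (adjusted p up to 0.0812). A second set, with 282, 228 and 184 on day 17 against 793, 906 and 695 on day -17, was called in the opposite direction (-1.80 ± 0.23, adjusted p = 0.000196). The third was level, at 469 to 633 on day 17 against 494 to 598 on day -17 (0.00 ± 0.21). The mean over the 3 sets was -0.39 (adjusted p = 0.0779).

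The array also carries EEF1A1 as a quality control, with 3 probe sets at its 3' end, middle and 5' end, of which the middle one is annotated to EEF1A1 and so is a member. They were left out of the test with the other controls, and were fitted in an alternative chosen after seeing the data. The middle set read 28287, 27644 and 33907 on day -17, 32456, 40136 and 40849 on day 1, and 54281, 52928 and 55310 on day 17. Day 17 lay wholly above the other days, by 0.53 ± 0.12 against day 1 (adjusted p = 0.0177) and 0.86 ± 0.12 against day -17 (adjusted p = 0.000328). On day 17 against day -17 the 3' set differed by 0.81 ± 0.10 and the 5' set by 0.32 ± 0.10, so the size varied along 1 transcript. The 3'/5' ratio of these sets was 1.26 to 1.43, 1.31 to 1.55 and 1.81 to 1.99 on the 3 days. EEF1A1 is known for a close paralog and many processed copies in mammalian genomes, and whether these probe sets also match such copies was not tested.

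**Figure D4:**
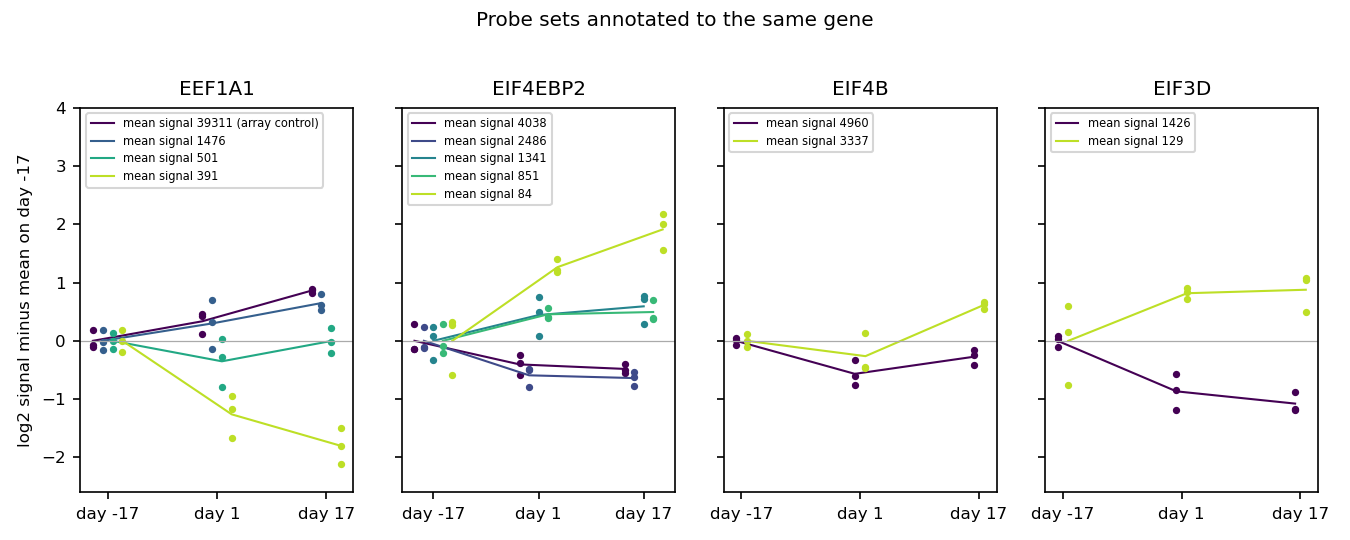
Log2 signal minus its mean on day -17 for every probe set annotated to EEF1A1, EIF4EBP2, EIF4B and EIF3D, on days -17, 1 and 17. Points are pools, lines join the means of the 3 days, and the legend gives the mean signal of a set: in EEF1A1 and EIF4EBP2 sets of 1 gene were called in opposite directions on day 17 against day -17, and in EIF4B and EIF3D their signs differ.

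Of the 15 members with more than 1 tested probe set, 10 had sets of unlike sign in at least 1 comparison. The share among all genes was not computed. Some of these signs rest on values near 0 in dim sets, such as EIF4H (0.01 ± 0.42) and EIF2A (-0.02 ± 0.30) on day 17 against day -17. In 2 of the 15, EEF1A1 and EIF4EBP2, the sets were called in opposite directions. Where the probe sets lie in their transcripts was not analysed here.

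Some companion genes of the same pathways, named with the lists they stand in, differed by more than any factor did. Of 12 tested mTORC1 pathway genes, 3 were called higher and 1 lower on day 1 against day -17, 1 higher on day 17 against day 1, and 5 higher and 2 lower on day 17 against day -17. These counts and those of the lists below stand beside the shares of all genes given above. RHEB, the GTPase that switches mTORC1 on, read 3375, 2922 and 3390 on day -17, 7750, 8144 and 9020 on day 1, and 11263, 10740 and 9681 on day 17. Its days did not overlap, and it was 2.57-fold higher on day 1 (1.36 ± 0.11, adjusted p = 5.48e-05) and 3.27-fold higher on day 17 (1.71 ± 0.11, adjusted p = 4.54e-06) than on day -17. LAMTOR3, part of the complex that holds mTORC1 on the lysosome, was higher by 0.66 ± 0.12 on both days (adjusted p = 0.00407 on day 1 and 0.00162 on day 17).

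Of 12 tested genes of the integrated stress response, the programme that follows EIF2 alpha phosphorylation, 3 were called higher and 2 lower on day 1 against day -17, 0 were called on day 17 against day 1 by limma (1 higher at an unadjusted p under 0.05), and 4 were higher and 1 lower on day 17 against day -17. DNAJC3, an inhibitor of EIF2 kinases, had 441 to 748 on day 1 and 590 to 647 on day 17, against 138 to 182 on day -17 (1.74 ± 0.21 and 1.91 ± 0.21, adjusted p = 0.000525 and 9.63e-05). ATF4, the transcription factor of this programme, was 1.65-fold higher on day 1 (0.73 ± 0.11, adjusted p = 0.00187) and 1.91-fold higher on day 17 (0.93 ± 0.11, adjusted p = 0.000154) than on day -17. ATF4 is also controlled at translation, which RNA signals do not show. DDIT3 (-0.59) and CEBPB (-0.62), transcription factors of the same response, were the ones called lower on day 1 against day -17.

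Hypusine on EIF5A is made from spermidine, and of 4 tested genes listed with that route SRM and ODC1 stood farthest apart. SRM, spermidine synthase, read 918, 1009 and 1198 on day -17, 8776, 9786 and 14199 on day 1, and 16921, 15134 and 13436 on day 17. It was 10.3-fold higher on day 1 (3.37 ± 0.18, adjusted p = 3.03e-06) and 14.6-fold higher on day 17 (3.87 ± 0.18, adjusted p = 5.95e-07) than on day -17. ODC1, ornithine decarboxylase, which starts polyamine synthesis, had 803, 986 and 629 on day 17, against 1544, 3158 and 3104 on day 1 and 3334, 5400 and 4672 on day -17. It was lower on day 17 by 3.12-fold against day 1 (-1.64 ± 0.29, adjusted p = 0.00748) and by 5.53-fold against day -17 (-2.47 ± 0.29, adjusted p = 0.000137). The counts over the list were 1 higher and 1 lower on day 1 against day -17, 1 lower on day 17 against day 1, and 1 higher and 2 lower on day 17 against day -17. SMS was called lower on day 1 (-1.155 ± 0.22) and on day 17 (-1.62 ± 0.22), each against day -17. DHPS was called in no comparison (-0.33 ± 0.15 on day 1 and -0.14 ± 0.15 on day 17, each against day -17).

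Of 4 tested genes of poly(A) binding, release and recycling, 1 was called higher on day 1 and 2 on day 17, each against day -17. PABPC1, the poly(A)-binding protein that joins the mRNA tail to EIF4G, read 23184, 22650 and 26519 on day -17, 26758, 34739 and 34132 on day 1, and 40156, 40102 and 43135 on day 17 (0.40 ± 0.12 on day 1, adjusted p = 0.0375, and 0.77 ± 0.12 on day 17, adjusted p = 0.000678, each against day -17). PAIP1, its partner, was higher on day 17 than on day -17 (0.49 ± 0.14, adjusted p = 0.0147). Of 6 mitochondrial translation factors 0 were called on day 1 against day -17 by limma (1 higher at an unadjusted p under 0.05), and 2, TSFM (0.57 ± 0.14, adjusted p = 0.00763) and MTRF1 (1.00 ± 0.27, adjusted p = 0.0129), were higher on day 17 against day -17. Both tested selenocysteine genes were higher than on day -17 on day 1 and on day 17: SEPHS2 by 0.63 ± 0.12 and 0.70 ± 0.12, and SECISBP2L by 0.71 ± 0.20 and 1.07 ± 0.20. These lists are short, and E. coli scaling lowers every value by 0.32 on day 1 and 1.28 on day 17 against day -17, which turns the day 17 values of ATF4, LAMTOR3, PABPC1, PAIP1, TSFM, MTRF1, SEPHS2 and SECISBP2L below 0.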

How the data were processed

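The deposited values are intensities, linear and 1 for each probe set on each array, which the authors obtained with MAS5 per the submitters' processing notes (version not given in the sources used here). The trimmed mean was 500.1 on every array. Signals were taken to log2 without a pseudocount, and 124 control probe sets were left out. The test took probe sets whose signal on 3 or more of the 9 arrays reached that array's 40th percentile (15519 did). Symbols came from GEO's platform annotation, and 64 of the 65 member probe sets have a gene ID that carries the same symbol in RefSeq. limma 3.58.1 in R 4.3.3 (lmFit, eBayes with an intensity trend) fitted day on all 9 arrays, two-sided, with Benjamini-Hochberg adjustment over all tested probe sets. An exact test of 3 against 3 cannot give a p under 0.1, and the number of arrays limits the precision. P-values measure the spread between pools. Code was tested on simulated data.

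In each role group the called genes with the smallest F test p (up to 4) were named with every array, as were EIF4E, EIF4EBP2, EIF2S1, EIF5A and EEF1A1; from each companion list up to 2 called genes were named. EIF2S2, EIF2B3, EIF3I, EIF3L, EIF4G1, EIF4G3 and the probe sets that disagree are given as examples. DDIT3, CEBPB, SMS and DHPS were named after their values were seen. Members and lists were chosen with earlier results of these data known.

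The labels number the pools of each day 1 to 3 without saying if equal numbers mark the same sows. Deviations from the day means correlated by 0.235 to 0.506 between same-numbered pools of days 1 and -17 (others -0.387 to 0.113). The values were 0.096 to 0.107 for days 17 and 1 (others -0.0768 to -0.0268). For days 17 and -17 they were 0.105 to 0.130 (others -0.0739 to -0.0421). Same-numbered pools thus lay above the others in every comparison. The number was used as a block in alternatives. Other alternatives were quantile normalization, median centring, E. coli control scaling, a pseudocount of 16, no filter or the 60th percentile, no intensity trend, the 6 compared arrays alone, each array left out, the mean over a gene's probe sets, and, chosen after seeing the data, the pig-gene controls kept in the fit.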

Additional observations from a re-analysis of the deposited data

How the results depend on the processing

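The counts of called members, 12 for day 1 against day -17, 4 for day 17 against day 1, 20 for day 17 against day -17 and 22 by the F test, ranged from 7 to 17, 1 to 6, 11 to 21 and 15 to 26 when 1 array was left out. The lowest came without day -17 pool 1 or 2 or day 1 pool 3 (7), without day 17 pool 3 (1), without day 17 pool 2 (11) and without 1 of 4 arrays (15). All the highest counts (17, 6, 21 and 26) came without day 1 pool 1, the day 1 pool with the lowest EIF2S1, EIF3B, EIF4A1, EIF4G1 and EIF5A signals. E. coli control scaling gave 15, 40, 40 and 40, with all directional calls lower, a minimum of 2-fold gave 0, 0 and 2, counting probe sets gave 19, 7, 30 and 32, and dropping the intensity trend gave 9, 2, 17 and 16. Quantile normalization gave 5 higher and 10 lower on day 1 against day -17 and 7 and 15 on day 17 against day -17, and median centring 8 and 4, and 10 and 5. With the pool number as a fixed replicate block the counts were 14, 4, 19 and 22, and as a random block 15, 4, 21 and 25. The fixed block ended 2 of the 36 called differences (EIF3L and EIF6) and the random block 0. The correlation between same-numbered pools exceeded 0.1 in all 3 pairs of both comparisons with day -17, and in 1 of 3 for days 17 and 1.

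Of the 36 called differences, in 26 genes, 16 held without any 1 array. Leaving the minimum of 2-fold aside, 9 held under every alternative apart from E. coli scaling, and 4 under every one. These 4 were EIF2D and EIF3E on day 17 against day -17, and EIF3E and EIF3H on day 1 against day -17. None of these 4 reaches 2-fold. Part of this was fixed in advance. All 4 are lower calls, which E. coli scaling could not turn, and each of these genes has 1 probe set, so no mean was taken. E. coli scaling turned below 0 all but 1 (EIF1) of the 20 members above 0 on day 17 against day -17, and all 19 on day 17 against day 1. Among the 26 called genes and EIF4E these were, on day 17 against day -17, EEF1A1 -0.63, EEF1B2 -0.86, EEF1E1 -0.56, EIF2A -0.68, EIF2B2 -0.69, EIF2S1 -1.16, EIF2S2 -1.0, EIF4E -0.87, EIF4G1 -1.06, EIF4G2 -0.82, EIF4G3 -0.80 and EIF5B -0.73. For day 17 against day 1 they were EEF1A1 -0.61, EEF1B2 -0.62, EIF1 -0.22, EIF2A -0.69, EIF2B2 -0.56, EIF3H -0.84, EIF4B -0.67, EIF4G2 -0.72, EIF4G3 -0.66, EIF5B -0.72 and EIF6 -0.95. That scaling subtracts 1 amount from every gene by construction. Quantile normalization turned EEF1B2 to -0.21 on day 1 and -0.24 on day 17, each against day -17, and the mean over probe sets turned EEF1A1 to -0.39 and EIF4EBP2 to 0.38 on day 17 against day -17, a mean that holds an EIF4EBP2 set under the filter level on day -17. The cause was not tested. Signal over background limits the dim sets: those of EIF3D and EIF4E2 had standard errors of 0.34 to 0.49.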
